A study of Mus musculus with 6 samples.

Results

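The EGF receptor family and its ligands were examined in tongues of adult C57BL/6J mice, an inbred laboratory strain. The family was defined by name as 10 genes, the receptors Egfr, Erbb2 and Erbb3 and the ligands Areg, Ereg, Hbegf, Tgfa, Btc, Epgn and Egf, and a gene was measured where the platform annotation gave it a probe set of its own. This held for 9 of the 10 genes, with 20 probe sets in all, among 18193 such genes on the array. Areg had no such probe set in the annotation used and was not analysed here. The study set 3 tongues exposed to 4-nitroquinoline 1-oxide (4NQO), a carcinogen that damages DNA and was drunk at 100 μg/ml over 8 weeks, against 3 control tongues. Total RNA of each tongue was hybridized to 1 Affymetrix mouse array, so the 6 values of a gene come from 6 tongues. The values are log2 signals per probe set as the authors normalized them, so 1 unit is a 2-fold difference. The tongue is a mixed tissue of epithelium, muscle, stroma, nerve, gland and immune cells, and in such bulk RNA fewer cells of a type cannot be told apart from less RNA per cell.

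EGF receptor family members are receptor tyrosine kinases that act in pairs. EGFR binds EGF-like ligands, ERBB2 has no known ligand of its own and serves as a partner, and ERBB3 has a weak kinase and signals through its partners. The ligands are made as membrane-anchored precursors, are cut free by ADAM metalloproteases, and drive growth, migration and survival of keratinocytes in stratified epithelia. Downstream lie the RAS-ERK and PI3K-AKT routes, and several of the induced proteins act back as inhibitors.

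No member passed the test at an adjusted p under 0.05 in either direction, and the 2 members whose groups did not overlap were both ligands, Epgn and Ereg. Their signals were 2.62-fold and 1.96-fold higher in 4NQO-treated tongue. The 3 receptors and the other 4 measured ligands overlapped between the groups. Tests were made with limma on all 18193 genes, and p-values were adjusted over all of them by the method of Benjamini and Hochberg. After adjustment 0.126% of all genes were higher in 4NQO-treated tongue and 0.0055% were lower. At an unadjusted p under 0.05, 2 of the 9 measured members were higher and none was lower, where 6.68% of all genes were higher and 3.74% lower. The same 2 members were the ones whose groups did not overlap, with 4NQO-treated tongues above, as for 9.59% of all genes. No member had all 4NQO-treated tongues below all control tongues, as for 7.18% of all genes. The median log2 fold change was 0.06 over the 9 members and -0.01 over all genes. The sign of the members' median was not stable: it was -0.11 without 4NQO 1, 0.21 without 4NQO 3, -0.06 with dim genes left out and -0.12 over every probe set.

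**Figure D1:**
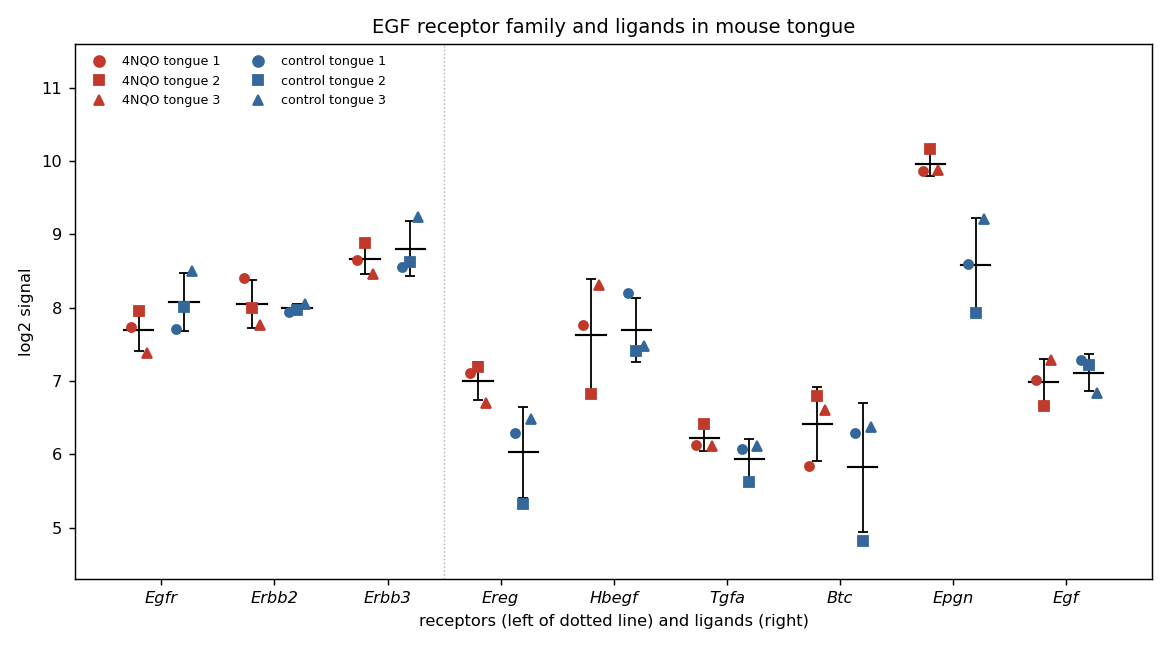
Log2 signal of the main probe set of 9 family members, with 1 point per tongue (4NQO left of control in each pair) and the mean ± SD of each group drawn as bars (n = 3 each). All 4NQO-treated tongues lie above all control tongues for Epgn and Ereg, and the groups overlap for the other 7 genes.

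Epgn, Ereg, Areg and Btc are consecutive protein-coding genes on mouse chromosome 5 in the RefSeq annotation. Egfr and Erbb2 are both on chromosome 11, Erbb3 is on 10, Tgfa on 6, Egf on 3 and Hbegf on 18. Promoter windows of 300 bases, 250 before and 50 after the RefSeq start (build GRCm38.p6), were found for 7 of the 10 members. The windows of Epgn and Btc, the measured genes at both ends of the chromosome 5 group, are shown because Epgn had the smallest p of all members and Btc did not pass even without adjustment. The Epgn window is chr5:91027267-91027566 on the plus strand and the Btc window is chr5:91402945-91403244 on the minus strand, both printed 5′ to 3′ on the strand of the gene. Capitals mark the only match to any of 6 motifs searched on both strands.
Epgn: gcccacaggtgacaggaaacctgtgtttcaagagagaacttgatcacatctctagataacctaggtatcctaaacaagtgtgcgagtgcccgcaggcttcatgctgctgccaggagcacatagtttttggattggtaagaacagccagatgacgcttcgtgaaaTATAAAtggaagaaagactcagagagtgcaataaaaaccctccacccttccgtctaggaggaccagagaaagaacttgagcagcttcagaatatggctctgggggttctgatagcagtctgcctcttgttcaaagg
Btc: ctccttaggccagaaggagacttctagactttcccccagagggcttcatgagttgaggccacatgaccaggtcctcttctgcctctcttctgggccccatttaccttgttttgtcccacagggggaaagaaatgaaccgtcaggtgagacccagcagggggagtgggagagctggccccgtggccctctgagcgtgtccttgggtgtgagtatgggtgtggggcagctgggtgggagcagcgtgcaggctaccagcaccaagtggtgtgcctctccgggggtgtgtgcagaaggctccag
The motifs were the TATA box TATAAA, the AP-1 site TGANTCA, the cyclic AMP response element TGACGTCA, the core of the antioxidant response element TGACNNNGC, the E-box CACGTG and the STAT site TTCNNNGAA, and no match in Epgn or Btc overlapped another. Epgn held TATAAA at -86 from the RefSeq start, a motif found in 13.6% of all 32851 promoter windows of that length. The Btc window held none of the 6. Of all windows, 7.81% held the AP-1 site, 1.79% the cyclic AMP element, 12.4% the antioxidant core, 7.15% the E-box and 8.30% the STAT site. A match is a run of letters, and its absence says only that these letters are not in the window.

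Epgn encodes epigen, an epithelial ligand of EGFR. Its log2 signal was 9.87, 10.16 and 9.88 in the 4NQO-treated tongues, against 8.60, 7.93 and 9.21 in the control tongues. Every 4NQO-treated tongue lay at least 0.66 above the highest control tongue, and the control tongues spread over 1.28 while the 4NQO-treated tongues spread over 0.29. The means were 9.97 ± 0.17 in 4NQO-treated tongue and 8.58 ± 0.64 in control tongue (SD, n = 3 each). The log2 fold change was 1.39 (SE 0.29, 95% interval 0.71 to 2.07), with an unadjusted p = 0.00151 and an adjusted p = 0.144 from limma. By p, Epgn ranked 189 of the 18193 genes. It was higher in 3 of 3 4NQO-treated tongues than in any control, which is as far as an exact permutation test of 3 against 3 can go, with a two-sided p of 0.1 as its smallest.

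Ereg encodes epiregulin, a ligand of EGFR and ERBB4. Its log2 signal was 7.11, 7.19 and 6.70 in the 4NQO-treated tongues, against 6.29, 5.32 and 6.48 in the control tongues. The groups did not overlap, by 0.22 between the lowest 4NQO-treated and the highest control tongue, and control 2 lay far below the other controls. For Ereg the log2 fold change was 0.97 (SE 0.31, 95% interval 0.26 to 1.69), with an unadjusted p = 0.0137 and an adjusted p = 0.326 from limma. Without control 2 the log2 fold change of Ereg was 0.62 and that of Epgn 1.07.

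Btc encodes betacellulin, a ligand of EGFR and ERBB4. It had a log2 signal of 5.84, 6.79 and 6.61 in the 4NQO-treated tongues and 6.29, 4.81 and 6.37 in the control tongues. The groups overlapped, and the log2 fold change was 0.59 (95% interval -0.42 to 1.60). Control 2 was the lowest tongue, and without it the log2 fold change was 0.08. A second, dimmer probe set of Btc had a log2 fold change of -0.12.

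Tgfa encodes TGF-α, an autocrine ligand of keratinocytes. Its log2 signal was 6.13, 6.42 and 6.11 in the 4NQO-treated tongues, against 6.07, 5.62 and 6.11 in the control tongues. The lowest 4NQO-treated and the highest control tongue differed by 0.0033, so the groups just overlapped. The log2 fold change was 0.29 (95% interval -0.15 to 0.73), and 2 dimmer probe sets gave 0.02 and 0.08. Without control 2 the log2 fold change of Tgfa was 0.13.

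Hbegf encodes heparin-binding EGF-like growth factor, a ligand made by injured keratinocytes and by macrophages. Its log2 signal was 7.76, 6.83 and 8.31 in the 4NQO-treated tongues and 8.20, 7.41 and 7.48 in the control tongues. It had the widest spread of any member within the 4NQO-treated tongues, 1.49, and those tongues held both its highest and its lowest value. The log2 fold change was -0.06 with a 95% interval from -0.93 to 0.81, and the second probe set gave 0.01.

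Egf encodes EGF itself, which in the mouse is made in large amounts by the submandibular gland. Its log2 signal was 7.01, 6.67 and 7.28 in the 4NQO-treated tongues and 7.29, 7.22 and 6.83 in the control tongues. The groups overlapped almost wholly, with a log2 fold change of -0.13 (95% interval -0.61 to 0.35). Of 9 measured salivary gland markers, only 3 had a mean signal above 4.60, the 95th percentile of 43 probe sets of olfactory receptor genes, which served as a background level and is no detection call. All 9 main probe sets of the family lay above that level, as did 64.9% of all genes. Gland marker signal was uneven between tongues. Summed on the linear scale it was 199.2, 198.8 and 569.6 in the 4NQO-treated tongues and 164.5, 321.6 and 198.7 in the control tongues. The part of gland content in the Egf values was not tested.

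None of the 3 receptors passed even before adjustment with its main probe set. Egfr, the receptor of all 6 measured ligands, had a log2 signal of 7.74, 7.95 and 7.39 in the 4NQO-treated tongues, against 7.71, 8.01 and 8.50 in the control tongues. The groups overlapped, with control 3 highest of all, and the log2 fold change was -0.38 (SE 0.24, 95% interval -0.93 to 0.16, adjusted p = 0.612 from limma). Without control 3 it was -0.17. All 7 probe sets of Egfr had a negative log2 fold change, from -0.55 to -0.18, and 5 of the 7 lay above the background level. They are annotated to the same gene and were measured in the same tongues, so they are not independent. With every probe set tested on its own, 1 of the 7 had an unadjusted p under 0.05, 0.0454, with a log2 fold change of -0.55. The average over the 7 probe sets had a log2 fold change of -0.30 (SE 0.11), with an unadjusted p = 0.0304 and an adjusted p = 0.439 from limma. That average includes the probe sets below the background level and mixes probe sets that disagreed on which tongues were high.

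The Egfr probe sets disagreed on which tongues were high. The main one was highest in 4NQO 2 and in control 3 within their groups. Another probe set, above the background level as well, was lowest in the same tongues, at 6.21 in 4NQO 2 against 6.68 and 6.86 in the other 4NQO-treated tongues, and at 6.37 in control 3 against 7.01 and 6.97 in the other control tongues. These are the arrays with the widest difference between the 3′ and the 5′ Gapdh control probe sets, a sign of RNA quality, at 1.07 in 4NQO 2 and 0.33 to 0.47 in the other 4NQO-treated tongues, and at 1.67 in control 3 and 0.086 to 0.20 in the other control tongues. The same difference for actin did not single out 4NQO 2: it was 1.12, 0.95 and 0.55 in the 4NQO-treated tongues and 0.75, 0.83 and 1.01 in the control tongues. Of the 9 members, 6 were highest in 4NQO 2 among the 4NQO-treated tongues and 7 were highest in control 3 among the control tongues. The shares of all genes highest in these arrays were not counted, so the counts cannot be read as particular to the family. With the Gapdh difference as a covariate, Epgn had a log2 fold change of 1.41 and passed limma's threshold (adjusted p = 0.0430), as 1 of 102 genes that were higher, where 23 were higher without the covariate. Egfr was then at -0.37, with an unadjusted p = 0.0423 from limma. Without both arrays the log2 fold change of Epgn was 1.61 (adjusted p = 0.206 from limma), that of Ereg 1.11 and that of Egfr -0.30.

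Erbb2 encodes the ligandless partner receptor. It had a log2 signal of 8.40, 7.99 and 7.76 in the 4NQO-treated tongues and 7.94, 7.97 and 8.05 in the control tongues. The control tongues lay within 0.11 of each other and inside the range of the 4NQO-treated tongues. The log2 fold change was 0.06 (95% interval -0.36 to 0.48). Erbb3, the receptor with a weak kinase, had a log2 signal of 8.66, 8.88 and 8.46 in the 4NQO-treated tongues and 8.56, 8.62 and 9.24 in the control tongues. Again control 3 was highest, and the log2 fold change was -0.14 (95% interval -0.63 to 0.35). The second Erbb3 probe set lay below the background level.

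**Figure D2:**
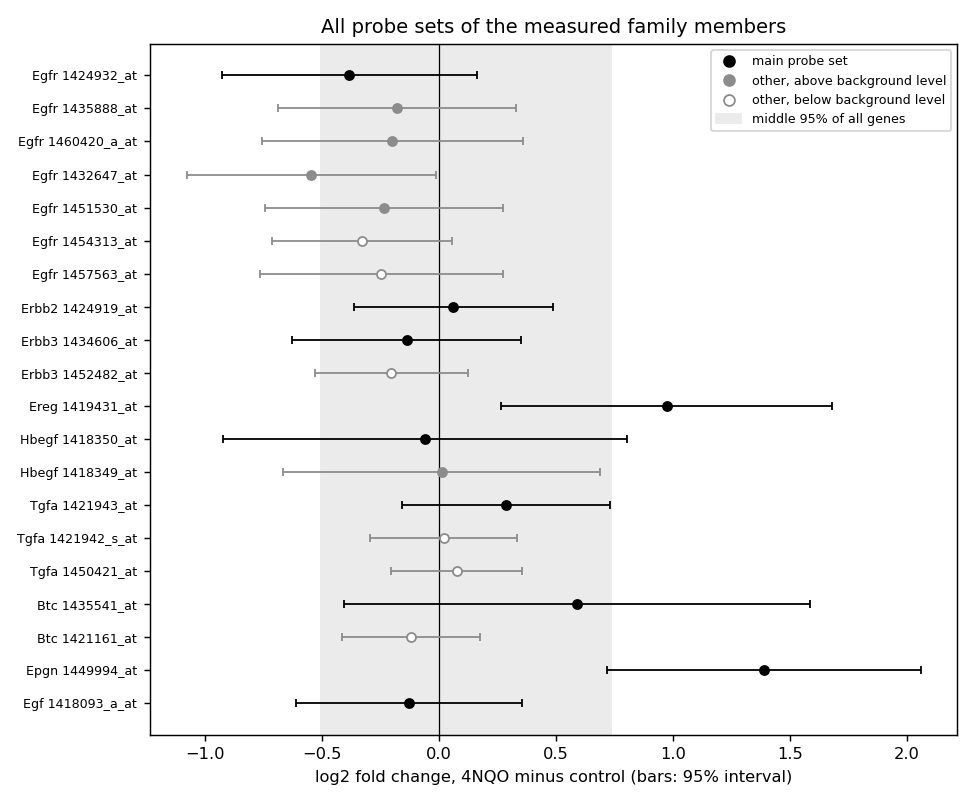
Log2 fold change (4NQO minus control, horizontal axis) of each of the 20 probe sets of the family, with 95% intervals from limma fitted on every probe set; black points are main probe sets, grey points are others, and open points lie below the background level. Grey shading spans the middle 95% of the log2 fold changes of all genes, -0.50 to 0.73, and the estimates of Epgn and Ereg lie to its right and that of 1 Egfr probe set, -0.55, to its left.

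A group of 4 ligands shared its highest and its lowest tongue. Epgn, Ereg, Btc and Tgfa each had their lowest signal of all 6 arrays in control 2 and their highest in 4NQO 2, while Hbegf and Egf did not. The share of all genes with that pattern was not counted, so it is not shown to be particular to these ligands. The array of 4NQO 2 also had the widest Gapdh difference of the 4NQO-treated tongues, 1.07. Markers of suprabasal oral keratinocytes, set as the median over 8 genes relative to the mean of the control tongues, were at 0.30, 0.38 and 0.01 in the 4NQO-treated tongues and at -0.03, -0.30 and 0.46 in the control tongues. Their lowest tongue was thus also control 2, though their highest was control 3. Summed on the linear scale, these markers ranged from 33180 to 38200 in 4NQO-treated tongue and from 28110 to 40400 in control tongue. Basal keratinocyte markers, a median over 9 genes, were at 0.50, 0.17 and -0.17 in the 4NQO-treated tongues and -0.27, 0.20 and 0.13 in the control tongues, with sums of 22320 to 28810 in 4NQO-treated and 21590 to 28210 in control tongue. The medians of both marker lists overlapped between the groups, but a median over several genes cannot be compared directly with 1 gene. A positive log2 fold change was seen for 7 of the 8 suprabasal and 7 of the 9 basal markers, where 8679 of all 18193 genes had one. At an unadjusted p under 0.05, 1 basal and 0 suprabasal markers were higher, where 6.68% of all genes were. The part of epithelial content in the ligand values was not tested.

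**Figure D3:**
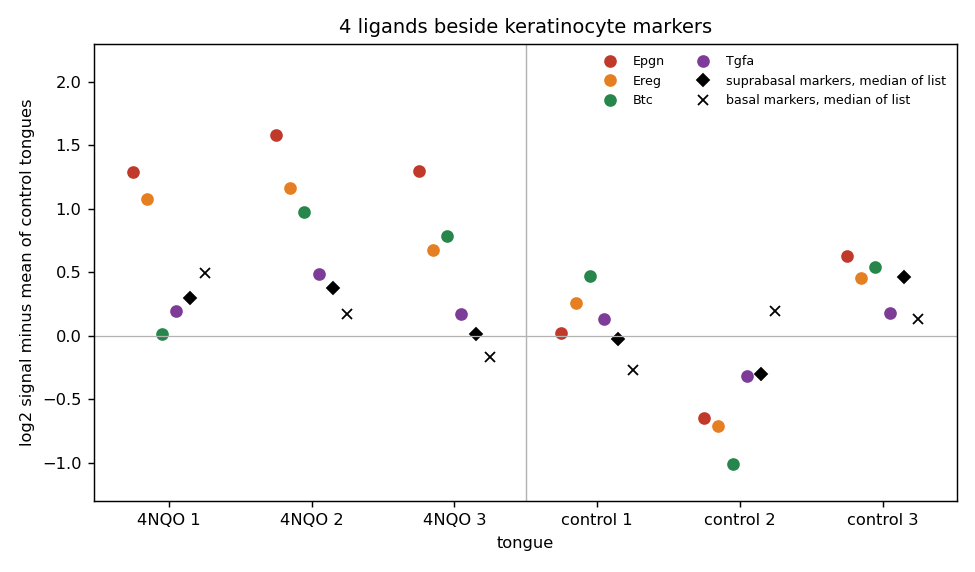
Log2 signal relative to the control mean (vertical axis) in each of 3 4NQO-treated and 3 control tongues, for 4 ligands (coloured points) and for the median of the suprabasal (diamonds) and basal (crosses) keratinocyte markers. All 4 ligands are lowest in control 2 and highest in 4NQO 2, and the suprabasal markers are also lowest in control 2. How many of all genes share this pattern was not counted.

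Other cell types that can make these ligands were followed by their markers. Of 10 macrophage and dendritic cell markers, all above the background level, 2 were higher at an unadjusted p under 0.05, where 6.68% of all genes were. Itgax, a dendritic cell integrin, had a log2 fold change of 1.15 and Cd74, the invariant chain, 0.82 (adjusted p = 0.0703 and 0.281 from limma). The median over the list was 0.33. That median was 0.03 without 4NQO 3, 0.13 without control 2, 0.62 without 4NQO 1 and 0.59 without control 3. Their summed linear signal ranged from 5381 to 10740 in 4NQO-treated tongue and from 4503 to 8176 in control tongue. Of 7 measured T and NK cell markers, 4 were above the background level, and none of those 4 passed before adjustment. Cd3g, a chain of the T cell receptor complex, and Nkg7, a granule protein, passed before adjustment, but both lay below the background level on average. The list had a median of 0.68, which was 1.09 without 4NQO 1 and 0.41 without 4NQO 2, and sums of 139.8 to 252.3 in 4NQO-treated tongue and 135.5 to 154.4 in control tongue. The 7 mast cell markers had a median of 0.05 and the highest sum, 1334, in control 3. Macrophage and dendritic cell markers were lowest in control 2, as Epgn and Ereg were, and highest in 4NQO 3, while T and NK cell markers were highest in 4NQO 2, as Epgn and Ereg were. Of 10 skeletal muscle markers 9 had a negative log2 fold change, with a median of -0.15, and none passed without adjustment. All 6 measured fibroblast markers had a negative log2 fold change, with a median of -0.28. Among them 1, Col1a2, was lower before adjustment, where 3.74% of all genes were (log2 fold change -0.50, adjusted p = 0.38 from limma). The groups were apart for 2 of the 6, with 4NQO-treated tongues below, as for 7.18% of all genes. Endothelial markers had a median of 0.02 over 6 genes, salivary gland markers 0.07 over 9 and nerve and Schwann cell markers -0.10 over 4. With 1 array left out, these medians ranged from -0.27 to -0.073 for muscle, from -0.48 to -0.12 for fibroblasts, from -0.11 to 0.076 for endothelium, from -0.086 to 0.21 for salivary gland, from -0.30 to 0.24 for nerve and from -0.33 to 0.67 for mast cells, so the last 4 have no settled direction. The part of these cell types in the ligand values was not tested.

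The remaining family members were below the background level. Erbb4, the receptor of neuregulins and of several EGFR ligands, had a mean log2 signal of 1.97 over the 6 arrays, and the neuregulins Nrg1, Nrg2, Nrg3 and Nrg4 had 2.44, 4.59, 2.33 and 3.30. Nrg1 had a log2 fold change of 0.21 with separate groups and an unadjusted p of 0.0425, at a signal that is not shown to be above background.

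Among 10 enzymes and cofactors that release the ligands, none passed at an adjusted p under 0.05 in limma. At an unadjusted p under 0.05, 2 were higher, where 6.68% of all genes were. Adam10, a protease that sheds EGF and betacellulin, had a log2 signal of 7.79, 7.98 and 7.37 in the 4NQO-treated tongues, against 7.06, 7.10 and 7.30 in the control tongues. The groups were apart by a small margin, with a mean difference of 0.56 (SE 0.19, limma's adjusted p = 0.358). Adam12 gave 0.49 at a signal below the background level and Adam9 gave 0.26 (unadjusted p = 0.0595). The median over the list was 0.15, but 0.028 without 4NQO 3 and 0.082 without control 1.

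The signalling proteins between receptor and nucleus lay near 0 as a group. Of 14 measured adaptors and members of the RAS-ERK cascade, 1 was higher and 1 was lower before adjustment. Over all genes 6.68% were higher and 3.74% lower at that level. Sos2, an exchange factor for RAS, differed by 0.65 on the log2 scale and Araf, a RAF kinase, by -0.53 (limma's adjusted p = 0.194 and 0.429), each with separate groups. Grb2, the adaptor that links the receptor to SOS, gave 0.29. Of 17 measured genes of the PI3K-AKT, PLC-γ, SRC and STAT branches, 1 was higher and 2 were lower before adjustment, beside the same shares. Plcg2, a phospholipase mainly of immune cells, was at 0.65 on that scale, while Pik3r1 and Pik3ca, the regulatory and the catalytic subunit of PI3K, were both at -0.48 (limma's adjusted p = 0.190, 0.340 and 0.380). The medians over these lists were -0.11 and -0.05, and ranged from -0.18 to -0.011 and from -0.14 to -0.030 with 1 array left out. Without both arrays of widest Gapdh difference the second was 0.030.

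Of 16 measured transcripts that ERK signalling is known to induce, 14 had a positive log2 fold change, where 8679 of all 18193 genes did. Some of these were near 0, with 0.023 for Fos, 0.017 for Dusp1 and 0.0089 for Hmga2. The groups overlapped for Egr1 and Junb too. They were apart for 4 of the 16, all with 4NQO-treated tongues above, as for 9.59% of all genes. Of the 16, 13 lay above the background level. At an unadjusted p under 0.05, 5 were higher, where 6.68% of all genes were, none was lower, none passed after adjustment in limma, and the median was 0.23, or 0.38 with dim genes left out and 0.38 without both arrays of widest Gapdh difference. Fosl1, an AP-1 factor of growing and migrating keratinocytes, had a log2 signal of 6.44, 5.62 and 6.08 in the 4NQO-treated tongues, against 4.01, 3.65 and 4.71 in the control tongues. The groups did not overlap (limma's adjusted p = 0.0703). As 2 of the control values lie below the background level, no size of the difference is given for Fosl1. Ccnd1, cyclin D1, had 10.30, 10.30 and 10.16 in the 4NQO-treated tongues, against 9.61, 9.75 and 9.57 in the control tongues, a mean difference of 0.61 (SE 0.12, limma's adjusted p = 0.115). Ier3, an early response gene, gave 0.58.

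Inhibitors that limit ErbB signalling showed no common direction, with a median of 0.04 over 24 genes. It was 0.0019 to 0.094 with 1 array left out and 0.16 without both arrays of widest Gapdh difference. Before adjustment 2 were higher and 1 was lower, where 6.68% of all genes were higher and 3.74% lower. None passed after adjustment in limma. Dusp6, an ERK phosphatase that ERK itself induces, had a log2 signal of 8.09, 7.90 and 8.16 in the 4NQO-treated tongues, against 7.34, 7.53 and 7.70 in the control tongues. Every 4NQO-treated tongue was higher, with a mean difference of 0.53 (SE 0.15, limma's adjusted p = 0.281). Socs5, a suppressor of cytokine and EGFR signalling, gave 0.32 and Cblb, a ubiquitin ligase of activated receptors, gave -0.64. The 4 keratins of wounded and stressed epithelium were all higher at an unadjusted p under 0.05, where 6.68% of all genes were. Their groups were separate with 4NQO-treated tongues above, as for 9.59% of all genes. None of the 4 passed after adjustment in limma. Krt17 had a log2 signal of 11.72, 10.76 and 11.25 in the 4NQO-treated tongues and 9.91, 10.23 and 8.58 in the control tongues, a mean difference of 1.67 (limma's adjusted p = 0.223). Krt16 gave 0.78 and Krt6a 0.34, and the median of the 4 was 0.68.

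**Figure D4:**
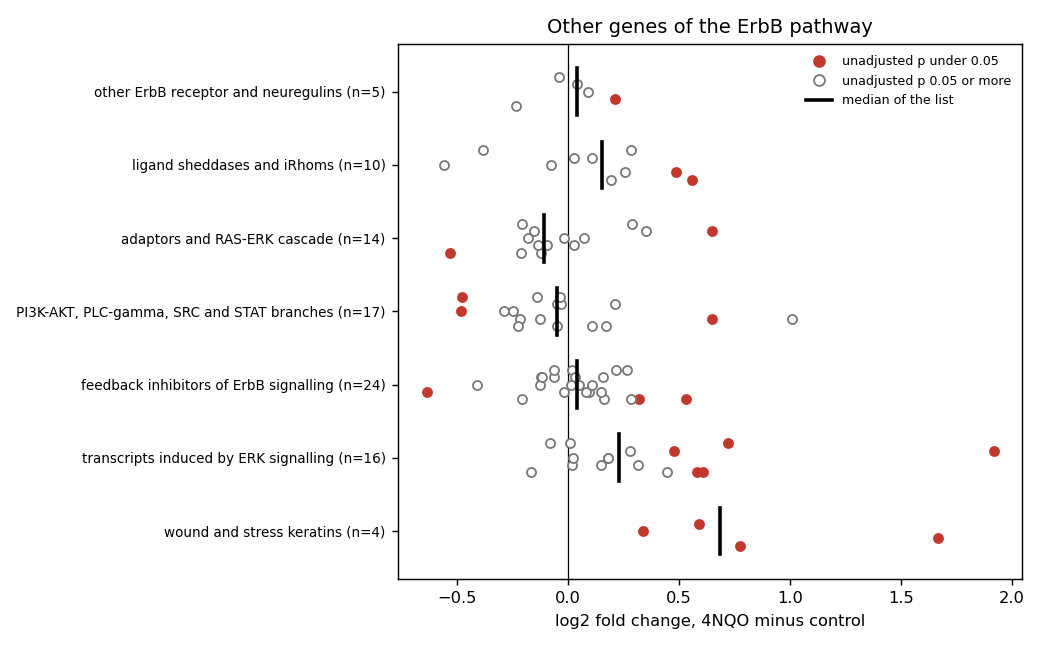
Log2 fold change (4NQO minus control, horizontal axis) of each measured gene in 7 lists of the ErbB pathway and of wound and stress keratins, 1 point per gene, red where the unadjusted p from limma was under 0.05, with a black bar at the median of each list. Medians run from -0.11 for adaptors and the RAS-ERK cascade to 0.68 for the keratins, and Fosl1 is the rightmost point, with 2 control values below the background level.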

How the data were processed

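The deposited values are log2 signals of 45101 probe sets on 6 Affymetrix mouse arrays, 1 per tongue, which the authors pre-processed and normalized in R with Bioconductor. Which normalization they used is not stated in the labels or methods. The paper names another series for its arrays, so it is not certain that these steps and SAM were applied to the values used here. The platform annotation paired 34945 probe sets with 1 gene, 932 with several and 9160 with none, and 64 were controls. Only probe sets of 1 gene were used, and a gene was represented by its brightest probe set on average. limma 3.58.1 in R 4.3.3 (lmFit, then eBayes with trend) was fitted on all 18193 genes without a filter on dim ones, at a threshold of 0.05 after Benjamini-Hochberg adjustment, and was tested on simulated data. With 3 arrays per group the number of arrays limits the precision.

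The members and gene lists were chosen with earlier results of these data known. Genes were named by rule: all members, Erbb4 and the neuregulins, up to 3 genes of each list by smallest p, and the 3 genes closest in pattern to the member of smallest p. Alternatives covered normalization, dim genes, the choice of probe set, the variance model, the replicate number as a block, arrays left out, the 3′ to 5′ Gapdh difference as a covariate, the methods' t-test and SAM, which the paper names and which was rewritten here. At its own threshold the methods' t-test gave 1046 genes higher and 654 lower, and 1 of each after Benjamini-Hochberg adjustment.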

Additional observations from a re-analysis of the deposited data

How the results depend on the processing

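Epgn and Ereg kept their direction under all 17 alternatives, but most of these could not have changed it. Each has 1 probe set, so the choice of probe set left its log2 fold change as it was. The variance model, the block and the t-test also leave that value unchanged. As the groups were apart, leaving arrays out could change its size but not its sign. Over the 17 alternatives the adjusted p of Epgn from limma or the methods' t-test ranged from 0.0430 to 0.473 and that of Ereg from 0.188 to 0.653. The unadjusted p stayed under 0.05 in 17 of 17 for Epgn and in 16 of 17 for Ereg. The number of members higher after adjustment was 0, and 1 (Epgn) with the Gapdh difference as a covariate. The number higher before adjustment was 2, and 1 by the methods' t-test. The number lower before adjustment was 0, and 1 (Egfr) with the mean of all probe sets, with every probe set tested and with the Gapdh covariate, and it ranged from 0 to 1 when 1 array was left out (1 without control 1). Hbegf was at 0.24 without both arrays of widest Gapdh difference. With 1 array left out, the log2 fold change ranged from -0.11 to 0.21 for Erbb2, from -0.26 to 0.078 for Erbb3, from -0.40 to 0.34 for Hbegf and from -0.28 to 0.034 for Egf, so the direction of these 4 is not settled.

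Over all genes, 23 were higher after adjustment. The number was 12 with dim genes left out, 14 with the probe set of highest SD, 15 with the mean of probe sets, 43 with robust variance, 4 without both arrays of widest Gapdh difference, 102 with the Gapdh covariate, 1 by the methods' t-test and 59 by SAM, and it ranged from 0 (without control 2) to 25 with 1 array left out (10 without 4NQO 1, 1 without 4NQO 2). The 1 gene that was lower became 2 with every probe set or no intensity trend, 4 with robust variance, 5 with the Gapdh covariate and 0 by SAM and without both arrays, and ranged from 0 to 2 with 1 array left out. The causes were not tested. With the replicate number as a block, 2 genes were higher and 0 lower, and Epgn had an adjusted p of 0.305. Deviations from the group means had r = 0.29, -0.51 and 0.05 between same-numbered arrays, and -0.52 to 0.48 between the other pairs. Deviations from a mean of 3 arrays depend on each other, so these values cannot decide whether the numbers pair the tongues. Egfr and Btc did not pass with 3 tongues a group, which does not show that they did not differ.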

Other observations

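Over the 6 tongues, 3 genes followed Epgn most closely among 11803 others above the background level, by the root mean square difference of log2 values centred on each gene's own mean. Dnase1l3, a secreted DNase, differed by 0.16, Blvrb, a biliverdin reductase, by 0.16 and Adh7, an alcohol dehydrogenase of upper digestive epithelium, by 0.21. Blvrb had a log2 signal of 10.11, 10.49 and 10.13 in the 4NQO-treated tongues, against 8.68, 8.14 and 9.05 in the control tongues. Adh7 had 12.15, 12.60 and 11.98 in the 4NQO-treated tongues, against 10.53, 10.46 and 11.30 in the control tongues. Dnase1l3 had 5.35, 5.51 and 5.36 in the 4NQO-treated tongues, against 3.87, 3.54 and 4.96 in the control tongues, of which the lower pair lie below the background level. These genes were chosen for their likeness to Epgn, whose groups are apart, so the separation of their own groups is no further result. The likeness covers 6 arrays in 2 groups and says nothing of shared control.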
